A study of Mus musculus with 6 samples.

Results

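Gadd45a, its relatives and the MAP kinases they act on were examined in glomeruli of dendrin knockout mice. The group held 10 genes of the 18194 that the array represents by a probe set naming a single gene: Gadd45a and its paralogs Gadd45b and Gadd45g, Gadd45gip1 (a protein that binds Gadd45 proteins), the kinase genes Map3k4, Map2k3 and Map2k6, and the MAP kinase genes Mapk14, Mapk8 and Mapk9. Every probe set that the array annotation assigned to exactly 1 of these genes was taken, 28 in all. The group was built around Gadd45a, a protein the study examined as a partner of dendrin, and Gadd45a was selected on its difference on these same arrays, past the criterion of the study (a fold over 1.5 and an unadjusted p under 0.05). That difference is therefore given as a description, with no test. The other 9 genes were taken for their kinship with Gadd45a or their place in its pathway.

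The 3 knockout mice lacked the coding sequence of dendrin, which an eGFP and neomycin cassette had replaced in every cell of the body, and the 3 control mice were wild type littermates. All were 13 months old and of a mixed 129S6SvEv/C57BL6 background by their labels, where the methods of the study describe backcrossing onto C57BL/6, and isolated glomeruli of each mouse were hybridized to 1 Affymetrix array. The values are GCRMA values, log2 signals of a probe set after subtraction of background, and a mean under log2 4 over the 6 arrays is called dim here. Of 45101 probe sets, 25482 were dim. Ddn, the gene of dendrin, stood at 3.80 to 3.81 in knockout glomeruli and at 12.22 to 12.81 in control glomeruli. All 7 podocyte markers measured besides Ddn were bright (means of 12.51 to 15.24), as were the endothelial ones (9.63 to 14.47), as the label of the tissue says. Control 2 stood apart. Markers of the proximal tubule exceeded the mean of the other 5 arrays there by a median of 1.35 (log2) and those of more distal tubule segments by 1.55, while leukocyte genes were at -2.03.

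The 3 Gadd45 proteins are small acidic nuclear proteins without enzymatic activity that are induced by DNA damage, growth arrest and other stress. They bind PCNA, the cell cycle inhibitor p21 and the kinase Cdk1, and they bind and activate MTK1, the product of Map3k4. MTK1 phosphorylates the MAP kinase kinases that activate p38 and JNK, among them MKK3 (Map2k3) and MKK6 (Map2k6) for p38, so that Gadd45 proteins link stress signals to growth arrest, survival or apoptosis. In podocytes and mesangial cells, the p38 and JNK kinases are known from models of glomerular injury.

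The paralogs differ in the DNA just before their start sites. It is shown as background, and its part in the levels of these genes was not tested. The 250 bases before the start are given from RefSeq (GRCm38.p6), on the strand of the gene, for Gadd45a at chr6:67037408-67037657 (minus strand), Gadd45b at chr10:80929841-80930090 and Gadd45g at chr13:51846425-51846674 (both plus strand). Capitals mark the 4 motifs searched on both strands, which did not overlap: the CCAAT box (CCAAT), the octamer bound by Oct factors (ATGCAAAT, or ATTTGCAT on the other strand), the E-box CACGTG and the TATA box (TATAAA).
Gadd45a: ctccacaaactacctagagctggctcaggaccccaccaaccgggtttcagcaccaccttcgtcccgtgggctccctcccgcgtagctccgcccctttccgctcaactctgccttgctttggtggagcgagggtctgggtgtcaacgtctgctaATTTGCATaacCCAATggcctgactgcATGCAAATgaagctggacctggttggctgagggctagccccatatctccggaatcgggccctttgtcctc
Gadd45b: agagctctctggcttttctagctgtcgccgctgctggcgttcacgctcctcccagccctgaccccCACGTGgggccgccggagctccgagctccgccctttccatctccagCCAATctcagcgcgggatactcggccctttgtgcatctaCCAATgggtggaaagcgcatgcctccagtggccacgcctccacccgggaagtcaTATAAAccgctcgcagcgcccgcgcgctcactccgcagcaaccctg
Gadd45g: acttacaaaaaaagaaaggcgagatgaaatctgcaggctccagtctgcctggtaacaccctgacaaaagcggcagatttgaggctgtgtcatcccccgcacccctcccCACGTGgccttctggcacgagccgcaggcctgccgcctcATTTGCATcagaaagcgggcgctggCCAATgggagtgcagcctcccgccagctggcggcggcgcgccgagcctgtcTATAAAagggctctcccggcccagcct

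The window of Gadd45a held 2 octamers, which begin 97 and 70 bases before the start and flank a CCAAT box at 86 bases. Gadd45g held 1 octamer (103 bases before the start) and a CCAAT box at 78 bases. Gadd45b held 2 CCAAT boxes (139 and 100 bases) and no match to the octamer. The E-box and the TATA box were matched in Gadd45b (185 and 46 bases) and in Gadd45g (142 and 27 bases), and not in Gadd45a. Of 32851 windows of this length before the starts of mouse genes, 1.6% held the octamer, 33.8% the CCAAT box, 6.02% the E-box and 12.4% the TATA box. Among the 13 windows of the 9 member genes with an entry, the octamer was matched in those of Gadd45a and Gadd45g. A match is a stretch of letters, and binding was not measured.

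Gadd45a mRNA was higher in the knockout glomeruli, whereas its paralogs Gadd45b and Gadd45g were not separated between the groups. Gadd45a was selected for this difference and its paralogs were not. Whether its difference differed from theirs was not tested. Gadd45a (chromosome 6, 67035096 to 67037407, GRCm38.p6) has 1 probe set, 1449519_at. Its GCRMA values (log2) were 11.31, 10.97 and 10.87 in knockout glomeruli, against 10.25, 10.66 and 10.33 in control glomeruli. All knockout values lay above all control values, with knockout 1 the highest of the 6 and control 2 the nearest of the controls. Gadd45a averaged 11.05 ± 0.23 in knockout and 10.41 ± 0.22 in control glomeruli (SD, n = 3 mice each), a difference of 0.64 on the log2 scale (limma standard error 0.18) or 1.56-fold. With 1 array left out in turn, the difference ran from 0.51 without knockout 1 to 0.76 without control 2. Without knockout 1 (0.51), control 1 (0.56) or control 3 (0.60), Gadd45a was no longer past the criterion. Of 10379 genes whose brightest probe set was not dim, 106 had a difference at least as large in the same direction, Gadd45a included. In whole glomeruli, a change in the number of cells of a type and a change of the RNA in each cell cannot be told apart.

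The members and the array as a whole were set side by side by the same criterion. Its p came from limma here, where the study names Significance Analysis of Microarrays (SAM), so the counts are not those of the study. It was passed by 0.180% of all 45101 probe sets, 81 in number (0.0843% higher and 0.0953% lower in knockout), by 0.382% of the 19619 that were not dim, and by 1 of the 28 member probe sets, that of Gadd45a, from which nothing can be read because it chose the group. None of the other 27 passed. An unadjusted limma p under 0.05 was given to 2 of these 27, of Map3k4 and of Map2k6, beside 3.63% of all probe sets and 8.12% of those not dim. A single probe set of the whole array (0.00222%), that of Ddn, had an adjusted p under 0.05 (limma, Benjamini-Hochberg), and each member besides Gadd45a had an adjusted p of 1. Podocyte markers, read on the same arrays, were higher in knockout in 7 of 7 genes with a median of 0.14 (0.24 without control 2), while 9 of 10 endothelial markers were lower with a median of -0.17. Leukocyte markers had a median of 0.60, which was -0.19 without control 2. Of these 14 genes, Itgam (-0.38) and Cd79a (-0.64) were lower in knockout. Cd3e stood at 2.20 on all arrays, and the others were higher. The median of 9 mesangial and smooth muscle markers was 0.036. Tagln was at 0.68 with separated groups, and Cnn1 stood at 2.20 on all arrays. The groups overlapped for Acta2 (0.44), Myh11 (0.41), Cspg4 (0.11), Des (0.036), Gata3 (0.014), Itga8 (-0.00031) and Pdgfrb (-0.053). The summed signal of the podocyte markers was 16.71 to 16.79 (log2) in knockout and 16.58 to 16.80 in control glomeruli, that of the leukocyte markers 14.84 to 15.55 in knockout and 13.34 to 15.55 in control, and that of the mesangial and smooth muscle markers 14.99 to 15.09 in knockout and 14.94 to 15.11 in control. The part of these cell types in the difference of Gadd45a was not tested.

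**Figure D1:**
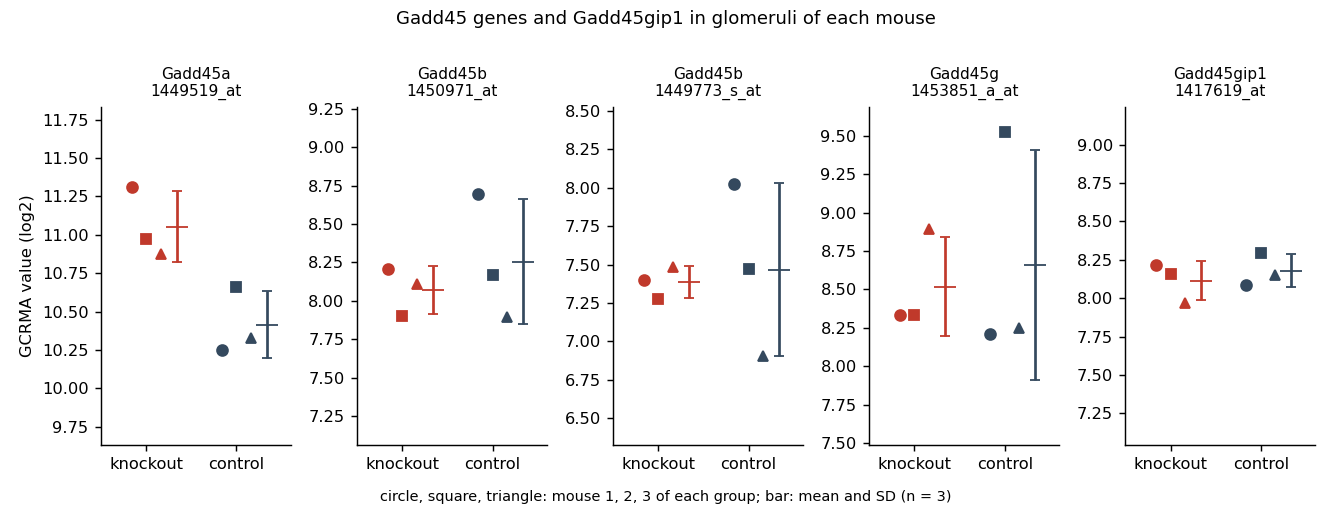
GCRMA values (log2, vertical axis) of the Gadd45 genes and Gadd45gip1 in each of the 3 knockout (red) and 3 control mice (dark blue), 1 panel per probe set with a mean of at least log2 4, all panels spanning the same range, with the mean and SD beside the points. Knockout and control points are separated for Gadd45a, with means of 11.05 and 10.41, and overlap in the other panels.

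Gadd45b, first described as a gene of myeloid differentiation and also a target of NF-κB and TGF-β, varied more among the control mice than between the groups. Its brightest probe set, 1450971_at, read 8.21, 7.90 and 8.11 in knockout and 8.70, 8.17 and 7.90 in control glomeruli. The 3 knockout values lay within the range of the controls. A further probe set, 1449773_s_at, was 7.40, 7.28 and 7.48 in knockout and 8.03, 7.47 and 6.90 in control glomeruli, so that both placed control 1 highest and control 3 lowest of the 6 mice. The differences were -0.18 (95% interval -0.84 to 0.47) and -0.079 (-0.94 to 0.78), intervals wide enough to hold a 1.5-fold change either way for the second and a fall of that size for the first. Without control 1, the sign of both turned, to 0.038 and 0.20. The remaining probe set, 1420197_at, was dim at 2.20 to 2.21 on all arrays.

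Gadd45g, the paralog induced by cytokines and in differentiation, had its highest value in the control mouse that stood apart. It was 8.33, 8.33 and 8.89 in knockout and 8.21, 9.52 and 8.25 in control glomeruli (probe set 1453851_a_at). Control 2 was the top value, knockout 3 came next, and the other 4 mice lay within 8.21 to 8.33. The group means were 8.52 ± 0.32 in knockout and 8.66 ± 0.75 in control (SD, n = 3), a difference of -0.14 with a 95% interval from -1.36 to 1.08. Without control 2, the difference was 0.29. Gadd45g on control 2 exceeded the mean of the other arrays by 1.12, beside medians of 1.35 for proximal and 1.55 for distal tubule markers on that array. On knockout 3 Gadd45g was 0.36 above the other arrays, beside medians of -0.13 and -0.26 for these 2 lists. The distal markers were divided there, and 4 are named after their values were seen. Slc12a1 (8.15) and Umod (11.68) were highest on knockout 3 after control 2. Slc12a3 (6.63) and Kng1 (4.46) were lowest of all arrays on knockout 3. Of the 12 proximal and 11 distal tubule markers measured (those of the loop, the distal tubule and the collecting duct), 3 and 5 were dim, among them the collecting duct channel gene Aqp2 (mean of 2.56). Their summed signal was 11.12 to 11.79 and 11.51 to 11.97 (log2) in knockout glomeruli, against 10.29 to 12.49 and 11.52 to 13.71 in control glomeruli. The part of tubule cells in the value of Gadd45g was not tested.

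Gadd45gip1 encodes CR6-interacting factor 1, a protein of the mitochondrial ribosome that also binds Gadd45 proteins in the nucleus. Its bright probe set, 1417619_at, was 8.21, 8.16 and 7.97 in knockout and 8.09, 8.30 and 8.15 in control glomeruli. The groups overlapped, with a difference of -0.065 (95% interval -0.31 to 0.18), which does not reach a 1.5-fold change in either direction. The other probe set, 1448776_at, was dim at 3.54 to 3.62.

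**Figure D2:**
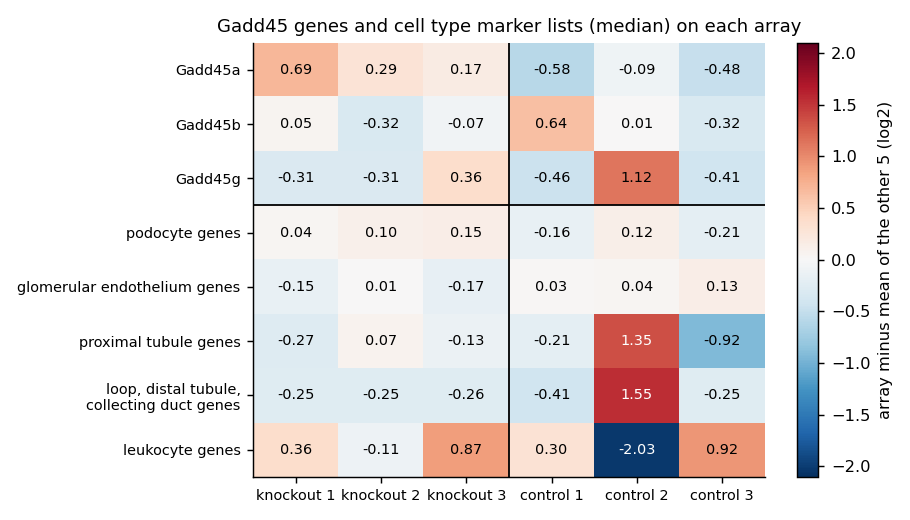
Deviation of each array from the mean of the other 5 (log2, color and number) for the brightest probe sets of Gadd45a, Gadd45b and Gadd45g, and below them the median deviation of 5 lists of cell type markers, with knockout arrays left and control arrays right of the line. Gadd45a is above 0 on every knockout array and below 0 on every control array, Gadd45b is highest on control 1 at 0.64, and Gadd45g is highest on control 2 at 1.12, where tubule genes are also high and leukocyte genes low.

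Map3k4, which encodes the MAP kinase kinase kinase MTK1 that Gadd45 proteins activate, had 4 probe sets, and its mean was higher in knockout glomeruli in each of them. They measure the same gene and are not independent. The brightest, 1459800_s_at, was 9.45, 9.76 and 9.47 in knockout and 9.22, 9.53 and 9.10 in control glomeruli. The groups overlapped by control 2 alone, which lay above 2 of the knockout mice. The difference was 0.28 (standard error 0.15, 95% interval -0.14 to 0.69), and 0.40 without control 2. The only probe set of Map3k4 with separated groups, 1447667_x_at, was 6.25, 6.53 and 6.31 in knockout and 6.10, 6.04 and 5.93 in control glomeruli. Knockout 2 was the highest of the 6 here, as in all 4 probe sets. Its difference was 0.35 (standard error 0.095, 95% interval 0.089 to 0.60), a 1.27-fold higher value with an adjusted p of 1 from limma. For 1421450_a_at and 1450253_a_at the difference was 0.18 (-0.12 to 0.47) and 0.057 (-0.11 to 0.23), and that of 1450253_a_at was -0.0057 without knockout 2.

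Downstream of MTK1, the knockout values of Map2k6 lay below the control values, and those of Map2k3 overlapped with them. Map2k6, which encodes the p38 activator MKK6, was 6.65, 6.28 and 6.29 in knockout and 6.88, 6.97 and 6.85 in control glomeruli (probe set 1426850_a_at). All knockout values lay below all control values, with knockout 2 and knockout 3 lowest and knockout 1 nearest to the controls. Map2k6 averaged 6.41 ± 0.21 in knockout and 6.90 ± 0.065 in control glomeruli (SD, n = 3), a difference of -0.49 (standard error 0.12, 95% interval -0.83 to -0.16). This is 1.41-fold, short of the fold of the criterion, and its adjusted p was 1 from limma. Without knockout 1 the difference was -0.62, and Map2k6 was then past the criterion. It ran from -0.43 to -0.52 without each of the other 5 arrays. Of 10379 genes, 117 had a difference at least as far below 0, Map2k6 included.

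Map2k3, whose product MKK3 is the closest relative of MKK6 and also activates p38, was 9.49, 9.59 and 9.65 in knockout and 9.45, 9.58 and 9.61 in control glomeruli (1451714_a_at). The 2 groups covered nearly the same range, and a further probe set, 1425456_a_at, overlapped as well. The differences were 0.033 (95% interval -0.15 to 0.21) and 0.057 (-0.13 to 0.24), so that neither interval reached a 1.5-fold change. Whether the difference of Map2k6 differed from that of Map2k3 was not tested.

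**Figure D3:**
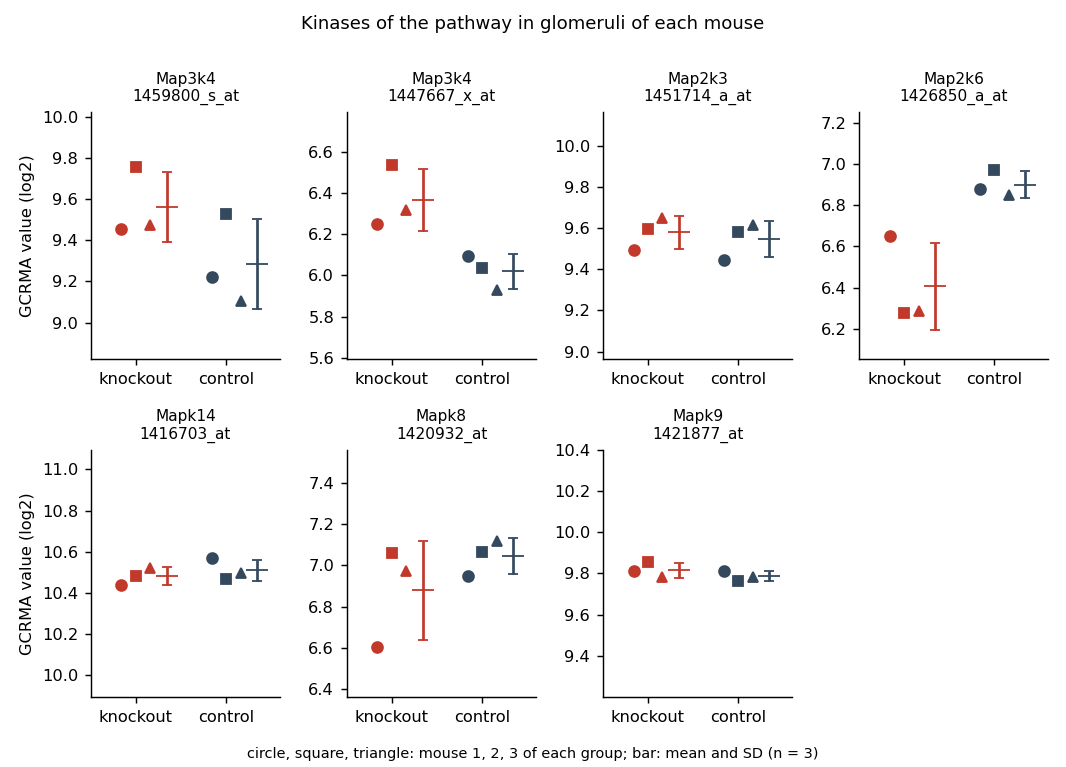
GCRMA values (log2, vertical axis) of the kinase genes in each of the 3 knockout (red) and 3 control mice (dark blue), shown for the brightest probe set of each gene and for the one Map3k4 probe set with separated groups, all panels spanning the same range, with the mean and SD. Map2k6 is lower in all 3 knockout mice, and Map2k3, Mapk14, Mapk8 and Mapk9 overlap.

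No probe set of the MAP kinases at the end of the cascade was past the criterion. Mapk14, which encodes p38α, was 10.44, 10.48 and 10.52 in knockout and 10.57, 10.47 and 10.50 in control glomeruli by its brightest probe set, 1416703_at. The values of the 2 groups were interspersed, and the difference of -0.029 had a 95% interval of -0.13 to 0.071. The other 2 probe sets of Mapk14 that were not dim, 1416704_at and 1451927_a_at, were at -0.13 (-0.32 to 0.069) and -0.032 (-0.25 to 0.19). The remaining 3 were dim, at 2.20 to 2.96 on all arrays, and the probes of 1 gene thus gave a signal in some probe sets and none in others.

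Mapk8, which encodes JNK1, was 6.61, 7.06 and 6.97 in knockout and 6.95, 7.07 and 7.12 in control glomeruli (1420932_at). Knockout 1 was the lowest of the 6, and without it the difference was -0.029, against -0.17 (95% interval -0.55 to 0.22) with all arrays. The probe sets 1437045_at, 1440856_at and 1457936_at were at -0.041, 0.090 and 0.17, so that the 4 probe sets of Mapk8 were divided between the directions. The fifth, 1420931_at, was dim.

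Mapk9, which encodes JNK2, was 9.81, 9.85 and 9.78 in knockout and 9.81, 9.76 and 9.78 in control glomeruli (1421877_at), a difference of 0.031 (95% interval -0.034 to 0.096). By 1421876_at it was 8.29, 8.22 and 8.24 in knockout and 8.17, 8.06 and 8.19 in control glomeruli. The groups did not overlap there, but the gap was narrow and the difference was only 0.11 (-0.015 to 0.23). By 1421878_at the difference was -0.11 (-0.35 to 0.13), the opposite sign, with overlapping groups.

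Among the members, 22 of the 28 probe sets were not dim, of which the mean was higher in knockout for 11 and lower for 11, and the median difference was 0.00082. The median over all 19619 probe sets that were not dim was 0.015. Besides that of Gadd45a, 21 probe sets were not dim, and the size of their differences had a median of 0.11, against 0.090 over all. The 95% interval lay within a 1.5-fold change on both sides for 14 of them and reached that size for 7. The groups did not overlap for 3 of these 21, those of Map3k4 (1447667_x_at), Map2k6 and Mapk9 (1421876_at), or 14.3%, near the 13.7% of all probe sets that were not dim (8.03% higher and 5.65% lower). No sign among the 22 turned with median centring or a second quantile normalization.

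**Figure D4:**
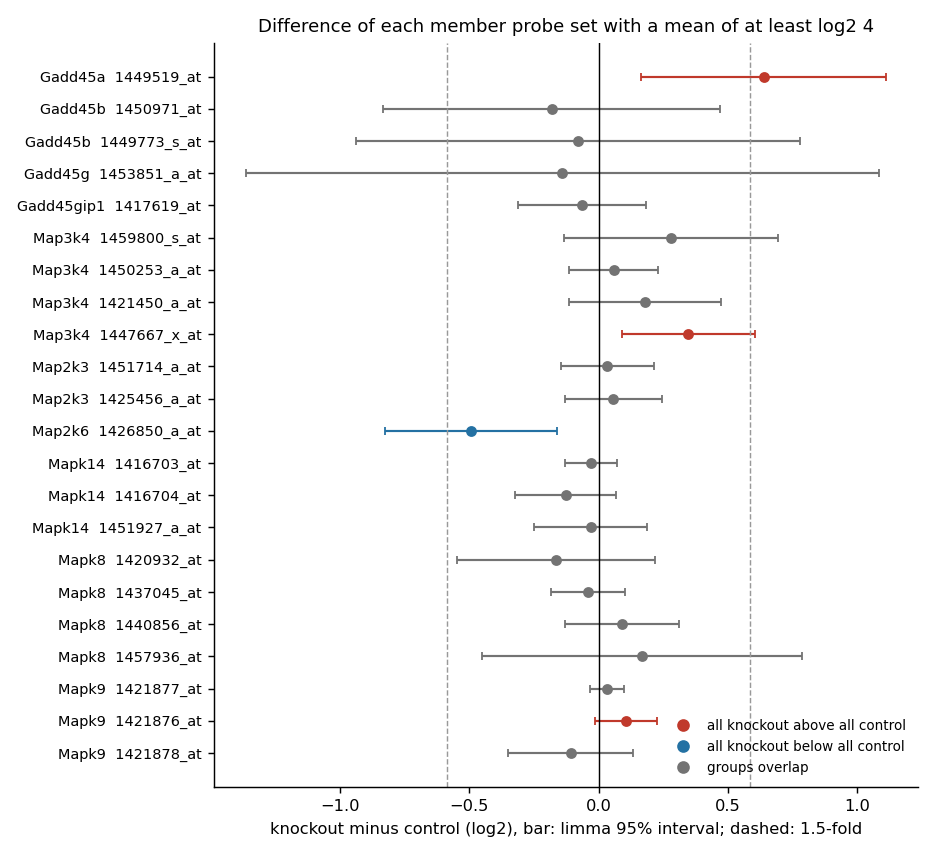
Difference between knockout and control (log2, horizontal axis) of the 22 member probe sets that were not dim, ordered by the role of the gene, with limma 95% intervals as bars. Red and blue points mark probe sets whose knockout values lie all above or all below the control values, grey points mark overlap, and the dashed lines mark a 1.5-fold change, which only Gadd45a exceeds.

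Genes related to the Gadd45 genes by pathway, by binding or by shared regulators were read from 6 lists. Of 141 listed genes, 127 had a probe set of their own, 115 with a brightest probe set that was not dim. Of these 115 genes, 69 were higher and 46 lower in knockout, with a median of 0.028. Over all 10379 genes, 60.1% were higher with a median of 0.030, and 60% of the listed genes were. A single listed gene, Klf15, was past the criterion, beside 0.395% of all 10379 genes, and no listed gene had an adjusted p under 0.05 (limma, Benjamini-Hochberg over all probe sets). At an unadjusted p under 0.05, limma counted 4 of the 115 as higher and 3 as lower, beside 8.33% of the 10379 in either direction.

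Among 31 other genes of the p38 and JNK cascade that were not dim, 11 were higher and 20 lower, with a median of -0.054. The count of higher genes was 13 with the arrays centred and 10 after quantile normalization, and none was past the criterion. Jun, the transcription factor that JNK phosphorylates, was 12.05, 11.93 and 12.49 in knockout and 12.23, 13.44 and 12.52 in control glomeruli. Its difference of -0.57 (standard error 0.39) came with overlapping groups and the highest value on control 2. Mapkapk3, a kinase activated by p38, was 6.28, 5.72 and 6.39 in knockout and 6.49, 6.62 and 6.97 in control glomeruli, with all knockout values below the controls and a difference of -0.56 (standard error 0.24). Mapk8ip1, a scaffold of the JNK cascade, was at -0.51 (standard error 0.37), with its lowest value, 4.20, on knockout 3. At an unadjusted p under 0.05 stood 3 of the 31 genes of this list, beside 8.33% of all 10379, and they are named after their values were seen. Mef2c, a transcription factor phosphorylated by p38, was 9.62, 9.76 and 9.78 in knockout and 10.21, 9.96 and 10.31 in control glomeruli (-0.44, standard error 0.11). Mapk12, which encodes p38γ, was at -0.21 (standard error 0.055) and Tab1, an activator of p38α, at 0.26 (standard error 0.077), both with separated groups and an adjusted p of 1 from limma. Of the 31 genes, 3 were separated with knockout higher and 3 with knockout lower. Over all probe sets that were not dim, these shares were 8.03% and 5.65%. Besides Tab1, the higher ones were the kinase genes Map3k6 (0.46) and Map3k5 (0.22), also named after their values were seen.

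The genes that control Gadd45a transcription, and the proteins that Gadd45 proteins bind, were examined next. Of 17 transcriptional regulators that were not dim, 11 were higher and 6 lower, with a median of 0.017 that turned to -5.9e-05 after quantile normalization. None was past the criterion. The largest differences were those of the nuclear receptor Ppara (-0.37, standard error 0.28), of Cebpb (0.31, standard error 0.41) and of the coactivator Ep300 (-0.24, standard error 0.11), all 3 with overlapping groups. Klf4 (-0.21) and Nr3c1 (-0.12), named after their values were seen, had separated groups with knockout lower. They were the only 2 of the 17 with separated groups, beside 13.7% of all probe sets that were not dim. Of 24 listed regulators, 19 had a probe set of their own, and Trp53 and Pou2f1 were not among them. Of 16 binding partners and targets in DNA repair and the cell cycle, 13 were higher and 3 lower, with a median of 0.067, and 11 were higher after quantile normalization. Over all 10379 genes, 60.1% were higher. The groups were separated for 3 of the 16, each with knockout higher, beside the same 13.7%. Cdkn1a, which encodes p21, the cell cycle inhibitor that binds Gadd45a and is a p53 target, was 10.08, 9.56 and 9.63 in knockout and 9.27, 9.04 and 9.49 in control glomeruli. All knockout values lay above the controls, and the difference of 0.49 (standard error 0.20) was short of the criterion. Its dimmer probe set, 1421679_a_at, was at 0.66 (standard error 0.28, 1.58-fold), also with separated groups, and was past the criterion among probe sets with a mean of at least log2 4 and among those with a range above 0.1. Cdk1, the mitotic kinase inhibited by Gadd45a, was 5.69, 5.48 and 5.27 in knockout and 5.20, 3.70 and 5.16 in control glomeruli, with separated groups and a difference of 0.79 (standard error 0.49) that was 0.30 without control 2. The checkpoint kinase gene Chek2 was at 0.42 (standard error 0.11), again with separated groups and its lowest value, 6.37, on control 2.

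Other targets of p53 and FoxO, transcription factors that induce Gadd45a in DNA damage and in fasting, were counted in the same way. Of 21 p53 targets, 13 were higher and 8 lower (median 0.067). Ddit4, an inhibitor of mTORC1 that stood in both lists, was 10.01, 9.74 and 9.83 in knockout and 7.64, 9.25 and 10.21 in control glomeruli. Control 1 was far below the rest and control 3 was the highest, so that the difference of 0.83 had a standard error of 0.72. The kinase gene Plk2 was at -0.69 (standard error 0.32), with overlapping groups. Of 16 FoxO target and fasting genes, 11 were higher and 5 lower (median 0.029, with 9 higher after quantile normalization). Klf15, a transcription factor of fasting and the glucocorticoid response, was 8.90, 8.69 and 8.83 in knockout and 7.95, 8.52 and 7.94 in control glomeruli. The groups were separated, with control 2 nearest to the knockout mice, and the difference was 0.67 (standard error 0.19, 1.59-fold). Klf15 was no longer past the criterion without knockout 1 (0.62), knockout 3 (0.66), control 1 (0.58) or control 3 (0.57). The insulin receptor gene Insr was at -0.27 (standard error 0.14), with separated groups. Cdkn1b, which encodes the cell cycle inhibitor p27 and is named after its values were seen, was 9.16, 9.11 and 9.10 in knockout and 9.29, 9.45 and 9.36 in control glomeruli (-0.24, standard error 0.047, adjusted p of 1 from limma). Of 16 genes that act with Gadd45gip1 in mitochondrial translation and respiratory chain assembly, 12 were higher and 4 lower (median 0.037), and no difference was larger than 0.18, that of the mitochondrial ribosomal gene Mrpl23. Next in size were Mrps22 (-0.15), of the same ribosome, and the mitochondrial protease gene Clpp (0.14).

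The genes whose pattern over the 6 arrays lay nearest to that of Gadd45a were sought among 10378 genes that were not dim, by the root mean square distance between values centred on each gene's own mean. The distance was 0.10 for Tagln, a gene of smooth muscle, 0.12 for Abat, an enzyme that degrades the transmitter GABA, and 0.13 for Klf15. It was 0.14 for the fatty acid transport gene Slc27a3, 0.15 for neuroglobin (Ngb) and 0.15 for Dusp14, a phosphatase of MAP kinases. For scale, the values of Gadd45a itself had a root mean square of 0.37 around their mean. Tagln was 10.52, 10.11 and 10.14 in knockout and 9.38, 10.01 and 9.35 in control glomeruli. Knockout 1 was highest of all and control 2 highest of the controls, as for Gadd45a. The same held for the other nearest genes, except that knockout 1 was not the highest for Dusp14. Since the nearest genes were sought for a pattern in which knockout lies above control, their own separation is a description. Among the listed pathway genes, Klf15 was the nearest, followed at a distance of 0.26 by Cdkn1a and at 0.27 by Tab1.

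**Figure D5:**
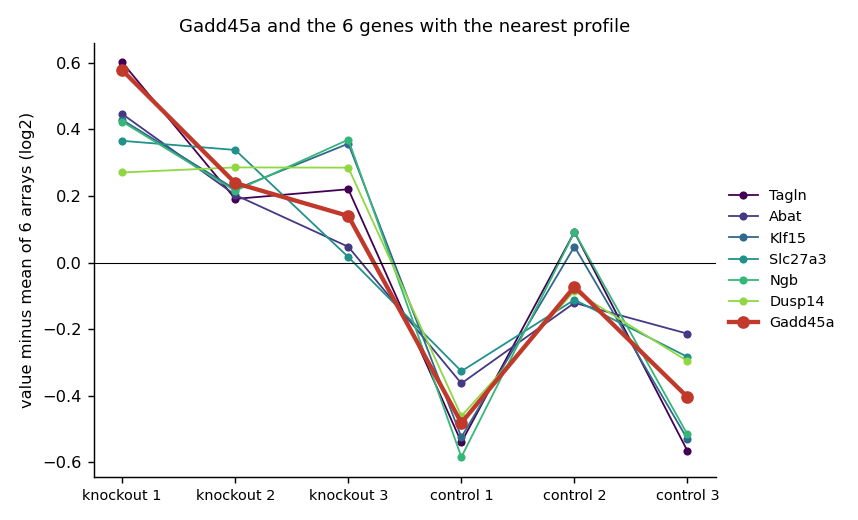
Values of Gadd45a (thick red) and of the 6 genes nearest to it, each centred on its own mean (log2, vertical axis), on the 3 knockout and 3 control arrays, where lines join the values of 1 gene and the order of mice within a group has no meaning. Knockout 1 is the highest array for all of them but Dusp14, and control 2 lies above the other controls for all of them.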

How the data were processed

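Glomerular RNA of 3 dendrin knockout and 3 control mice was profiled on Affymetrix mouse genome arrays, 1 per mouse. The authors processed the arrays with GCRMA (version 2.30.0), and the deposited values are log2 intensities of probe sets, corrected for background and quantile normalized. Groups were taken from the labels. Arrays give no counts, so that their number limits the precision, and 3 mice against 3 allow no exact permutation p under 0.1.

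Knockout and control were compared with limma (version 3.58.1, R 4.3.3), lmFit and eBayes, two-sided, over all 45101 probe sets, unfiltered and without covariates. The prior had 0.312 degrees of freedom beside 4 residual ones, so that an interval rests mostly on the spread of its own probe set. Differences are knockout minus control, with limma standard errors and 95% intervals. Benjamini-Hochberg adjustment ran over all probe sets. SAM, which the methods of the study name, was an alternative, and the code was tested on simulated data. Other alternatives changed 1 choice at a time (filters, scaling, offset, array weights, the fold, a block, 1 array left out). Probe sets were paired with genes through the platform annotation. Where a list needs 1 value per gene, the probe set with the highest mean was used. Named genes were all members, the 3 largest differences of each list that were not dim, genes past the criterion and the 6 genes nearest to Gadd45a. Those added after their values were seen are marked. The members and lists were chosen with earlier results of these data known. Motifs were searched in RefSeq promoter sequences (GRCm38.p6). No protein sequence was used here.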

Additional observations from a re-analysis of the deposited data

How the results depend on the processing

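Of 17 alternatives, 9 of the 22 member probe sets that were not dim had a value under each and 13 under 16, since a filter or the choice of 1 probe set per gene left them out. Under those, 13 of the 22 kept the sign of their difference. The difference of Gadd45a stayed above 0 (0.51 to 0.76) and that of Map2k6 below 0 (-0.62 to -0.42). Neither sign could turn with 1 array left out, because the groups of both genes are separated. Filters, the fold, SAM and the block leave each difference unchanged by construction, and Gadd45a had been selected on its difference. The member count past the criterion was 1 probe set of 1 gene, and it was 0 with the replicate block (the replicate number of the labels as a block) and at a fold over 2. It ranged from 0 to 1 with 1 array left out, where Map2k6 took the place of Gadd45a without knockout 1. Pathway genes past the criterion, 1 in number, were 0 with the replicate block, 0 at a fold over 2, 2 among probe sets with a mean of at least log2 4 (Klf15 and Cdkn1a), 3 among those with a range above 0.1 (these and Plk2) and 0 to 2 with 1 array left out. All probe sets past it, 81 (38 higher and 43 lower), were 141 (61 and 80) with the range filter, 14 (7 and 7) at a fold over 2, 45 (23 and 22) with 1 probe set per gene, and 78 to 140 (30 to 81 higher and 37 to 85 lower) with 1 array left out. The count lower was 66 with the filter on the mean and 27 with an offset of 16. Adjusted p values under 0.05 counted 1 probe set with limma (1636 at an unadjusted p under 0.05), 0 with SAM and 1 to 7 with 1 array left out. The permutations of 3 mice against 3 are too few for SAM to give a small corrected p, so nothing is read from its 0. The cause of the other shifts was not tested. Same-numbered mice share only a number. Deviations of same-numbered mice correlated at 0.095, 0.35 and 0.25, the highest value for each array. For control 1 this was nearly a tie, at 0.095 with knockout 1 and 0.094 with knockout 3. Whether mice of the same number belong together was not tested. With the block, the difference of Gadd45a is the same 0.64 by arithmetic, since each number holds 1 knockout and 1 control mouse. Gadd45a was not past the criterion with the block, which leaves fewer residual degrees of freedom.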
